A study of Mus musculus with 6 samples.

Results

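The Notch receptors Notch1, Notch2, Notch3 and Notch4, the ligands Jag1, Jag2, Dll1 and Dll4, and the targets Hes1 and Hey1 were taken by symbol from a table of 22183 mouse genes. All 10 genes were found, each in 1 row, and all passed the filter on low counts that kept 14432 genes for testing. Kidney messenger RNA was sequenced in 3 libraries from mice that received pcDNA3 as an empty vector (control) and in 3 from mice that received a Wnt1 plasmid. Wnt1 is a secreted protein that signals through beta-catenin. The labels name 1 batch, and they give no strain, sex, age, injury procedure, delivery route or time after the plasmid. Which cells took up the plasmid is not given either. The labels do not tie libraries to separate animals. The p-values therefore reflect only the spread among these samples, which may be technical. The comparison asks which of these transcripts differed in the kidney with the Wnt1 plasmid.

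Notch receptors are single-pass membrane proteins that are activated by ligands on neighbouring cells. Binding leads to cleavage by an ADAM protease and by gamma-secretase, and the freed intracellular domain enters the nucleus. There it joins the DNA-binding protein RBPJ and Mastermind coactivators and switches on genes such as Hes1 and Hey1, which encode basic helix-loop-helix repressors. In the kidney the pathway is known for its part in nephron segmentation during development and for its expression in vessels and in injured tubules. Notch3 is best known from vascular smooth muscle and pericytes, and Notch4 and Dll4 from endothelium.

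Expected counts summed to between 23585040 and 27218091 per library. Reads of Wnt1 itself numbered 1 in all, in Wnt1 replicate 2, so the gene on the plasmid could not check the labels. A second principal component, with 14.7% of the variance, separated the libraries numbered 3, one in each group, from the remaining 4. The number 3 is their place in the order of the records, not a number in their deposited titles. Members' values without these libraries are given beside the results. Kidney markers were present: those of the proximal tubule (Lrp2, Cubn and 6 others) summed to between 29569 and 36756 CPM in controls and 5209 to 8195 CPM with Wnt1. CPM here is a count scaled to a common library size by TMM factors, which correct for composition and were 0.848 to 0.879 in controls and 1.12 to 1.19 with Wnt1. Without them, using library totals alone, the 14432 tested genes had a median log2 fold change of 0.47 in place of 0.05, and every gene shifts upward by about the same amount.

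Notch3 and Jag1 rose with the Wnt1 plasmid, and no member passed the test in the other direction. With edgeR's quasi-likelihood test and an adjusted p under 0.05, 2 of 10 members were called, both higher, against 41.1% of all tested genes called in either direction and 22.4% called higher. No member was called lower, against 18.7% of tested genes; at an unadjusted p under 0.05 there was 1 (Dll4), and DESeq2 called 1, the same gene, against 20.7% of genes (and 2 higher, against 22.3%). The median log2 fold change of the members was 0.24, against 0.05 for all tested genes. The share of members called higher was thus near the background. Havcr1, a marker of injured tubule, went from 2.59 ± 0.809 CPM in control to 447 ± 105 CPM with Wnt1 (SD, n = 3), a far larger change than that of any member.

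**Figure D1:**
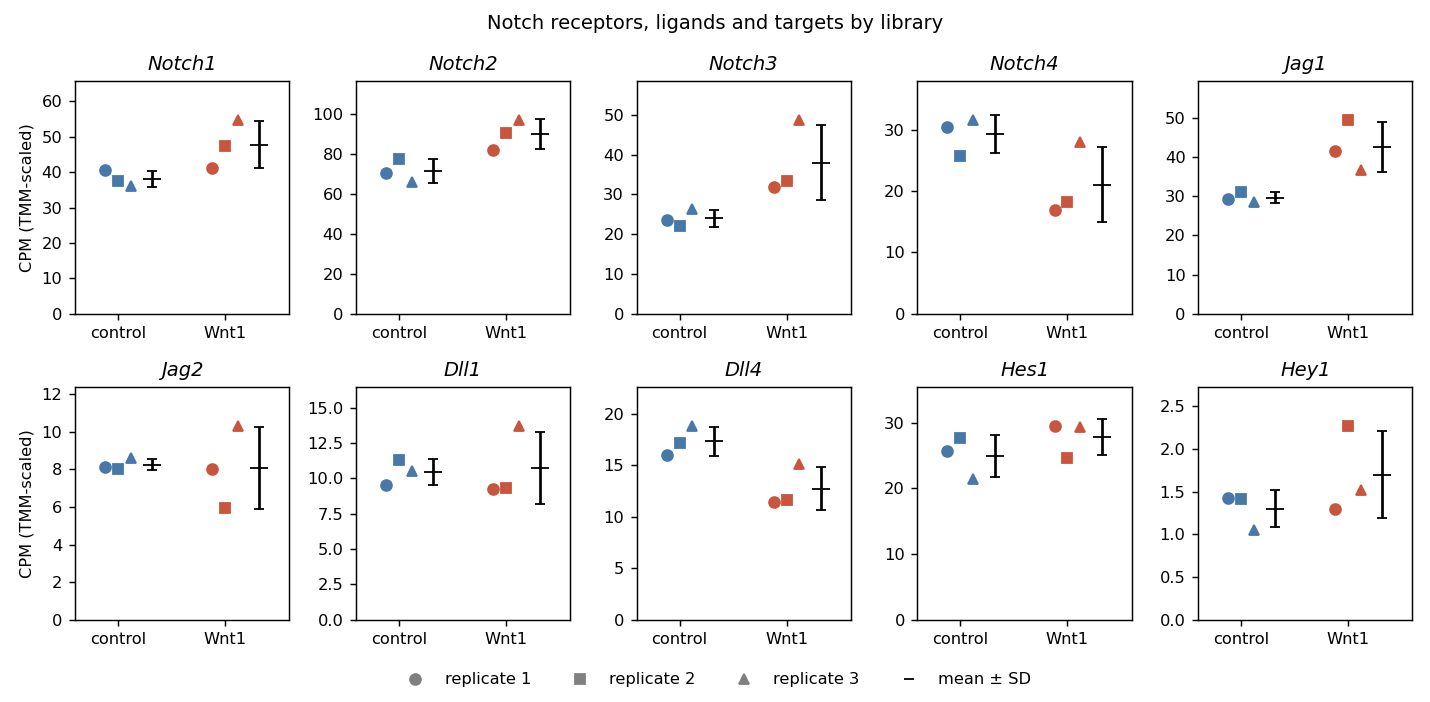
Level of each of the 10 genes in each library, in TMM-scaled CPM on linear axes from 0, for 3 control and 3 Wnt1 libraries; symbols mark the replicate, and bars give mean ± SD. Notch1, Notch2, Notch3 and Jag1 lie higher in all Wnt1 libraries than in any control, Dll4 lies lower, and the other 5 overlap.

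Among the receptors, Notch3 was the one that passed the test with all libraries. It stood at 23.5, 22.1 and 26.3 CPM in control replicates 1, 2 and 3 and at 31.8, 33.4 and 48.8 CPM in Wnt1 replicates 1, 2 and 3. All Wnt1 libraries were above all controls, and Wnt1 replicate 3 was the highest. The log2 fold change was 0.66 ± 0.19 (SE; edgeR adjusted p = 0.0247), a 1.58-fold rise. It was 0.44 without Wnt1 replicate 3 (adjusted p = 0.0152) and 0.51 without both libraries numbered 3 (adjusted p = 0.00202), and without control replicate 2 the adjusted p was 0.0516 at 0.66. Over the 16 alternatives its adjusted p ranged from 0.00185 to 0.0516.

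Notch1, the receptor that regulates many developmental cell fate choices, stood at 40.6, 37.6 and 36.1 CPM in control and at 41.3, 47.3 and 54.8 CPM with Wnt1. The groups did not overlap, but the lowest Wnt1 library lay close to the highest control. The log2 fold change of 0.33 ± 0.14 did not pass the test (edgeR adjusted p = 0.107; 95% interval -0.01 to 0.66), and it was 0.22 without Wnt1 replicate 3 and 0.18 without both libraries numbered 3 (adjusted p = 0.134 and 0.149). Notch2, the receptor known for proximal tubule formation in the developing nephron, stood at 70.3, 77.6 and 65.9 CPM in control and at 82.0, 90.4 and 97.0 CPM with Wnt1. The groups again did not overlap, and the log2 fold change of 0.33 ± 0.13 had an edgeR adjusted p of 0.072 (95% interval 0.04 to 0.63); without both libraries numbered 3 it was 0.22 (adjusted p = 0.0671). Both receptors were called higher with library totals, each at 0.75 (adjusted p = 0.00314 for Notch1 and 0.00177 for Notch2), which is 0.27 and 0.28 above the median of all genes under that scaling.

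Notch4, the endothelial receptor, had lower values in 2 of the 3 Wnt1 libraries. It stood at 30.4, 25.7 and 31.6 CPM in control and at 16.9, 18.2 and 28.0 CPM with Wnt1. Wnt1 replicate 3 lay within the control range and the other Wnt1 libraries below it. With all libraries the log2 fold change was -0.48 ± 0.21 (edgeR adjusted p = 0.112; 95% interval -0.97 to 0.02). Without Wnt1 replicate 3 it was -0.74 (adjusted p = 0.00319), and without both libraries numbered 3 it was -0.68 (adjusted p = 0.00148). With library totals it was -0.06 (adjusted p = 0.803), or -0.54 relative to the median of all genes.

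Among the ligands, Jag1 rose and Dll4 lay lower. Jag1, the Jagged ligand mutated in Alagille syndrome, stood at 29.4, 31.2 and 28.5 CPM in control and at 41.7, 49.6 and 36.8 CPM with Wnt1. All Wnt1 libraries were above all controls, with replicate 3 the lowest of them. The log2 fold change was 0.52 ± 0.15 (edgeR adjusted p = 0.0226), a 1.44-fold rise. The call did not hold when control replicate 1, 2 or 3 or Wnt1 replicate 1 or 2 was left out (adjusted p = 0.0702, 0.0596, 0.0628, 0.0549 and 0.0802), with log2 fold changes of 0.40 to 0.63. Without Wnt1 replicate 3 it was 0.62 (adjusted p = 0.00384), without both libraries numbered 3 it was 0.59 (adjusted p = 0.00202), and the range over all alternatives was 0.00141 to 0.0802.

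Dll4, the endothelial Delta ligand of sprouting vessels, stood at 16, 17.1 and 18.8 CPM in control and at 11.4, 11.6 and 15.1 CPM with Wnt1. The Wnt1 libraries all lay below the controls. The log2 fold change of -0.45 ± 0.17 missed the threshold (edgeR adjusted p = 0.0646; 95% interval -0.83 to -0.06). Without both libraries numbered 3 it was -0.53 (adjusted p = 0.00433), and without Wnt1 replicate 3 alone -0.59 (adjusted p = 0.00736). With library totals it was -0.03 (adjusted p = 0.883), or -0.50 relative to the median of all genes.

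The remaining ligands overlapped between the groups. Jag2, the second Jagged ligand, stood at 8.14, 8.02 and 8.58 CPM in control and at 8.02, 5.95 and 10.3 CPM with Wnt1. Its log2 fold change was -0.03 (95% interval -0.54 to 0.48; edgeR adjusted p = 0.936), with a wider spread among Wnt1 libraries than among controls. Dll1, a Delta ligand, stood at 9.52, 11.3 and 10.5 CPM in control and at 9.26, 9.31 and 13.7 CPM with Wnt1. Its log2 fold change was 0.04 (95% interval -0.42 to 0.50; edgeR adjusted p = 0.888). Without both libraries numbered 3 the log2 fold change was -0.21 for Jag2 and -0.17 for Dll1 (adjusted p = 0.34 and 0.333). Changes within the 95% intervals given above were not excluded for either gene.

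The targets among the members, Hes1 and Hey1, were not called. Heyl, outside the members, was called higher and is described below. Hes1, a repressor induced by many signals beside Notch, stood at 25.7, 27.6 and 21.4 CPM in control and at 29.5, 24.6 and 29.3 CPM with Wnt1. Wnt1 replicate 2 lay within the control range. The log2 fold change was 0.16 ± 0.15 (edgeR adjusted p = 0.434; 95% interval -0.19 to 0.51), and 0.02 without both libraries numbered 3 (adjusted p = 0.878). With library totals Hes1 was called higher at 0.58 (adjusted p = 0.013), which is 0.11 above the median of all genes. Hey1, a repressor of the endothelium among other cells, was the scarcest member, with 31, 32 and 23 reads in control and 41, 64 and 40 with Wnt1. That is 1.43, 1.42 and 1.05 CPM against 1.3, 2.27 and 1.52 CPM, with overlap between the groups. Its log2 fold change of 0.38 ± 0.31 had a 95% interval of -0.33 to 1.10 (edgeR adjusted p = 0.362), the widest among the members, and was 0.31 without both libraries numbered 3 (adjusted p = 0.457).

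**Figure D2:**
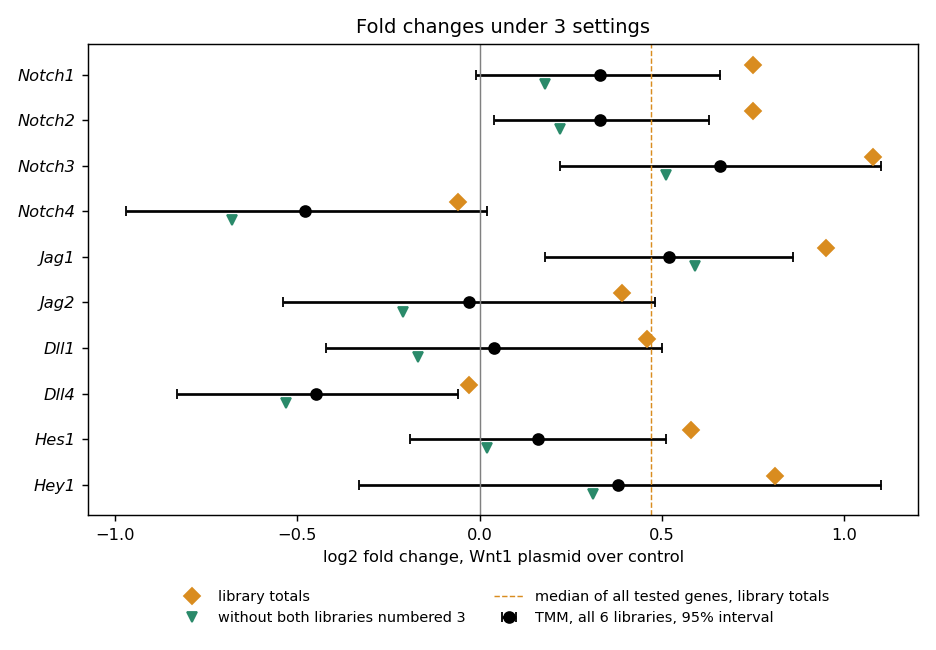
Log2 fold change, Wnt1 plasmid over control, of each member with TMM scaling (black points, bars are 95% intervals), with library totals (diamonds) and without both libraries numbered 3 (triangles). Library totals move every member to the right, by about the shift of the median of all tested genes (dashed line at 0.47). Notch3 and Jag1 lie above 0 under all 3 settings, as do Notch1, Notch2, Hes1 and Hey1. Notch4 and Dll4 lie below 0, but with library totals only at -0.06 and -0.03 (edgeR adjusted p = 0.803 and 0.883).

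The groups did not overlap for 5 of 10 members, against 53.5% of all tested genes, with Wnt1 above in 4 (28.2% of genes) and below in 1 (25.3%). On FPKM they did not overlap for 7 members, against 61% of genes. Wnt1 replicate 3 was the highest of the Wnt1 libraries for 7 of 10 members, against 54.8% of tested genes. Without both libraries numbered 3, 2 members were called higher (Notch3 and Jag1; 32% of genes) and 2 lower (Notch4 and Dll4; 30.4% of genes). The same 4 calls were made without Wnt1 replicate 3 alone (28.5% of genes higher and 27.2% lower) and by voom with quality weights (32% and 30.7%). With library totals 5 were called higher (Notch1, Notch2, Notch3, Jag1 and Hes1; 44% of genes) and 0 lower (8.92% of genes), and the members' median was 0.66 against 0.47 for all genes. By limma on log2(FPKM + 1), where Hey1 was under the filter, the same 5 were called higher (41.1% of genes) and 0 lower (9.89% of genes).

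Ratios between members within a library do not depend on how libraries are scaled. The pairs were chosen after the values were seen, and 6 ratios were computed. Reads of Notch3 over reads of Notch4 gave 0.773, 0.86 and 0.831 in control and 1.88, 1.84 and 1.74 with Wnt1. This was a log2 difference of 1.15, with SDs between libraries of 0.08 in control and 0.06 with Wnt1 (two-sided exact permutation p = 0.1, the smallest that 3 against 3 libraries allow; adjusted p = 0.3). Notch4 thus had more reads than Notch3 in every control library and fewer in every Wnt1 library. The ratio was also closely alike within each group, including the libraries numbered 3, and the log2 difference without them was 1.19.

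Reads of Jag1 over reads of Dll4 gave 1.83, 1.82 and 1.52 in control and 3.65, 4.27 and 2.43 with Wnt1. The log2 difference was 0.97 (SDs 0.16 and 0.42; two-sided exact permutation p = 0.1, adjusted p = 0.3), and 1.11 without both libraries numbered 3. The groups did not overlap, and Wnt1 replicate 3 was the closest to control. The other 4 ratios overlapped between the groups: Notch3 over Notch2 (log2 difference 0.31), Jag1 over Jag2 (0.58), Hes1 over Notch2 (-0.17) and Hey1 over Hes1 (0.19).

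Promoters of these 4 genes are shown, a choice made after the values were seen. They are a receptor and a ligand called higher, and a receptor and a ligand of the endothelium not called with all libraries. Each is given in RefSeq's GRCm38.p6 on the gene's own strand, from 147 bases before the transcription start used there to 3 after it. A promoter window was available for 8 of the 10 members (all but Hes1 and Hey1). Among these 4 genes, that start meets the beginning of the GENCODE gene span given below only for Dll4. The start of Notch3 lies before its GENCODE span, and those of Notch4 and Jag1 lie inside theirs. Most of the bases printed for Jag1 are therefore within the annotated gene. Capitals mark the GC box GGGCGG, on either strand, in Notch3, Jag1 and Dll4, and the AP-1 letters TGAGTCA, on either strand, in Notch4.
Notch3 (chr17:32166888-32167037, minus strand): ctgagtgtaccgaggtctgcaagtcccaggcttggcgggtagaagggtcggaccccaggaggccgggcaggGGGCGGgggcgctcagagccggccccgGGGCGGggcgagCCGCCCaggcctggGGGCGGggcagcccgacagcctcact
Notch4 (chr17:34564148-34564297, plus strand): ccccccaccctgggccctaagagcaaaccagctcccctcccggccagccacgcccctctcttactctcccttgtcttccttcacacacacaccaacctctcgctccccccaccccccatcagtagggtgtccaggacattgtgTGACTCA
Jag1 (chr2:137116518-137116667, minus strand): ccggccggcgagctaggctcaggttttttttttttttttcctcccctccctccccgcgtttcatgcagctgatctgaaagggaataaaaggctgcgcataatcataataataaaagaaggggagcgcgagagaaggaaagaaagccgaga
Dll4 (chr2:119325637-119325786, plus strand): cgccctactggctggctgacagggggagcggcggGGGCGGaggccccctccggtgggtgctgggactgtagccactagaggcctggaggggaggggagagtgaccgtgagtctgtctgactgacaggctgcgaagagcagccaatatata
Notch3 had 4 matches to the GC box in this stretch and 76.7% G and C, Dll4 had 1 match and 66% G and C, and Jag1 had no match and 48.7% G and C. Over the full windows, from 250 bases before to 50 after the start, 5 of the 8 members held a GC box, against 35.7% of all 32851 windows. These were Notch1, Notch2, Notch3, Jag2 and Dll4, so Notch4 held none. The AP-1 letters were in the window of Notch4 only, against 5.2% of all windows. They begin 4 bases before the start used here, which places them inside the GENCODE span of Notch4. The RBPJ core TGGGAA, searched on both strands, was in none of the 9 windows of the 8 members, against 25.6% of all windows. The TCF/LEF letters CTTTGAT were likewise in none, against 3.73%. These searches describe letters in short windows and say nothing of binding.

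The make-up of the receptors and ligands was compared on the authors' FPKM scale, which divides by transcript length, so that genes can be compared within a library. In control the order by mean FPKM was Hes1 (14.7 ± 2.05, SD, n = 3), Notch2 (5.87 ± 0.536), Jag1 (4.57 ± 0.254), Notch4 (4.49 ± 0.248), Dll4 (3.99 ± 0.244), Notch1 (3.47 ± 0.27), Notch3 (2.63 ± 0.278), Dll1 (2.52 ± 0.193), Jag2 (1.86 ± 0.216) and Hey1 (0.464 ± 0.0833). Neighbours in this order were separated in every library, except that the ranges of Jag1 and Notch4, and of Notch3 and Dll1, overlapped. With Wnt1 the order was Hes1 (21.9 ± 1.68), Notch2 (9.89 ± 0.725), Jag1 (8.83 ± 1.63), Notch1 (5.88 ± 0.792), Notch3 (5.61 ± 1.04), Notch4 (4.14 ± 0.542), Dll4 (3.91 ± 0.52), Dll1 (3.46 ± 0.708), Jag2 (2.28 ± 0.584) and Hey1 (0.813 ± 0.266). Notch1 and Notch3 thus stood above Notch4 and Dll4 with Wnt1, while Notch4 and Dll4 stood above both in control. The ranges of Notch2 and Jag1, of Notch1 and Notch3, of Notch4 and Dll4, and of Dll4 and Dll1 overlapped with Wnt1.

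As a share of the summed FPKM of the 4 receptors, Notch4 made up 26.1%, 28.1% and 27.7% in control and 16.7%, 15.2% and 16.7% with Wnt1. Notch3 made up 15.6%, 14.1% and 18.5% in control and 21.5%, 20.4% and 23.8% with Wnt1. Neither share overlapped between the groups (differences of -11.1 and 5.86 percentage points; two-sided exact permutation p = 0.1 for each, the smallest possible, and adjusted p = 0.2 over 8 shares). Notch2 was the largest receptor share in every library, at 35.6 ± 2.06% and 38.9 ± 2.38%, and Notch1 made up 21.1 ± 1.44% and 23 ± 0.747%; both overlapped between the groups. Among the ligands, a family added after the values were seen, Jag1 went from 35.3 ± 1.45% to 47.8 ± 8.52% and Dll4 from 30.8 ± 2.1% to 21.2 ± 2.27%. Neither overlapped between the groups (two-sided exact permutation p = 0.1 for each, adjusted p = 0.2), and Jag2 and Dll1 overlapped.

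**Figure D3:**
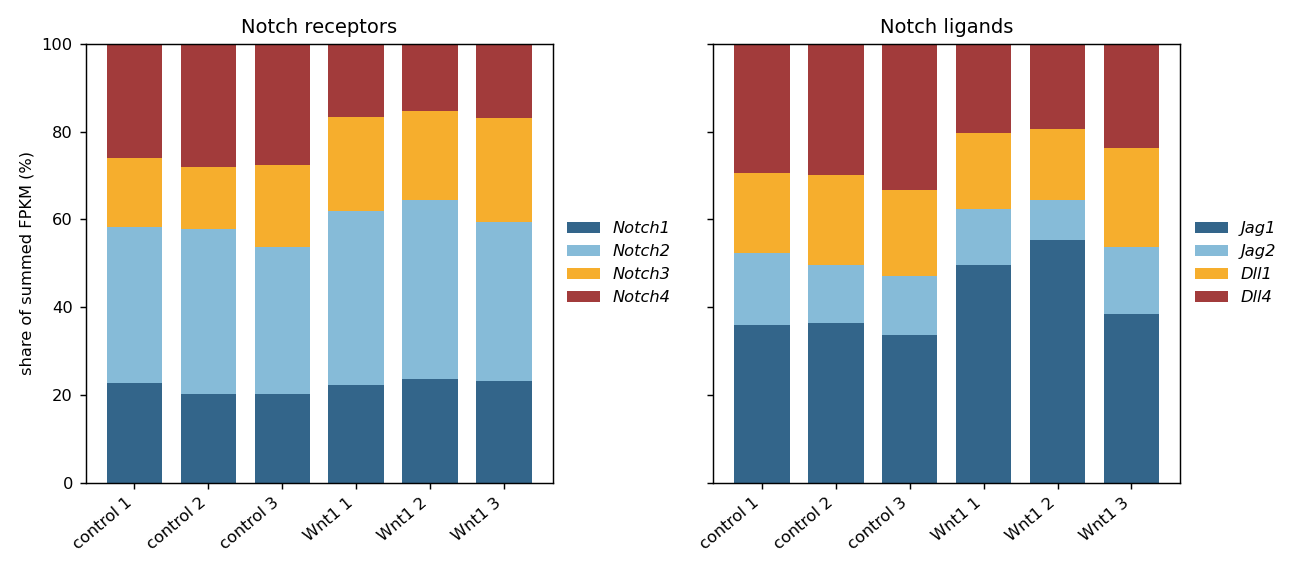
Share of the summed FPKM of the 4 receptors (left) and of the 4 ligands (right) in each of the 6 libraries, in percent, stacked to 100. Notch4 takes 26.1% to 28.1% of the receptors in control and 15.2% to 16.7% with Wnt1, and Dll4 takes a smaller share of the ligands in every Wnt1 library.

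The transcript length that count and FPKM imply together was steady for most members and moved for Notch4. With the column total as depth, Jag1, Dll1, Dll4, Hes1, Hey1 and Notch2 had the same length in all libraries, equal to the longest GENCODE transcript (5612 bases for Jag1 and 3747 for Dll4). Notch4 ranged from 4.66 kb in control replicate 2 to 6.58 kb in Wnt1 replicate 3, a ratio of 1.41, and Jag2 from 3.39 to 4.25 kb, a ratio of 1.25. Over 11890 genes the median ratio was 1.03 and the 90th percentile 1.22. Notch4 has 12 annotated transcripts and Jag2 10, whereas Jag1, Dll4 and Notch2 have 2 each. On counts in place of FPKM the Notch4 share was 18% in control and 10.6% with Wnt1, again without overlap.

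Levels of Notch4 and Dll4 were set beside those of endothelial markers. In bulk tissue, fewer cells of a type and less RNA per cell cannot be told apart. Of 12 endothelial markers, all tested and none at 0, 0 were called higher and 7 lower (median log2 fold change -0.56), and their summed level was 1127 to 1377 CPM in control and 730 to 1017 CPM with Wnt1. Without both libraries numbered 3, 12 were called lower, and with library totals 1. Pecam1, an endothelial adhesion molecule, fell (-0.53 ± 0.16; edgeR adjusted p = 0.0333), a call lost without control replicate 1, 2 or 3 or Wnt1 replicate 1 or 2 (adjusted p = 0.056 to 0.11) and with library totals (-0.11; 0.541). Cdh5, the endothelial cadherin, had a log2 fold change of -0.40 (adjusted p = 0.131). Relative to the summed endothelial markers, Notch4 stood at 2.38%, 2.28% and 2.3% in control and 2.32%, 2.39% and 2.76% with Wnt1. Dll4 stood at 1.26%, 1.52% and 1.36% in control and 1.56%, 1.53% and 1.49% with Wnt1. Both overlapped between the groups (log2 differences of 0.10 and 0.15; two-sided exact permutation p = 0.2 for each). Against the median of the markers' log2 levels the differences were -0.01 and 0.05.

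The other members set against the endothelial sum were higher relative to it in every Wnt1 library. The sum itself was lower in every Wnt1 library, so a gene with an unchanged level also rises against it. Jag2 itself had a log2 fold change of -0.03. These ratios are therefore not read as changes of the members. The log2 difference was 1.12 for Jag1, 0.92 for Notch1, 0.96 for Hey1 and 0.54 for Jag2 (two-sided exact permutation p = 0.1 for each, adjusted p = 0.122 over 11 ratios of a member to a marker list). Jag1, for example, was 2.31%, 2.77% and 2.07% of the endothelial sum in control and 5.71%, 6.54% and 3.62% with Wnt1. Of 6 markers of arterial endothelium, 1 was called higher and 1 lower: Gja4, a gap junction protein, fell (-0.65 ± 0.20; edgeR adjusted p = 0.0341), and Efnb2, the artery ephrin, named after its value was seen, rose (0.60 ± 0.15; adjusted p = 0.0142; called in 15 of 16 alternatives, 0.00109 to 0.054). The Gja4 call was lost without control replicate 1, 2 or 3 or Wnt1 replicate 1 or 2 (adjusted p = 0.0812 to 0.117) and with library totals (-0.23; 0.312).

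**Figure D4:**
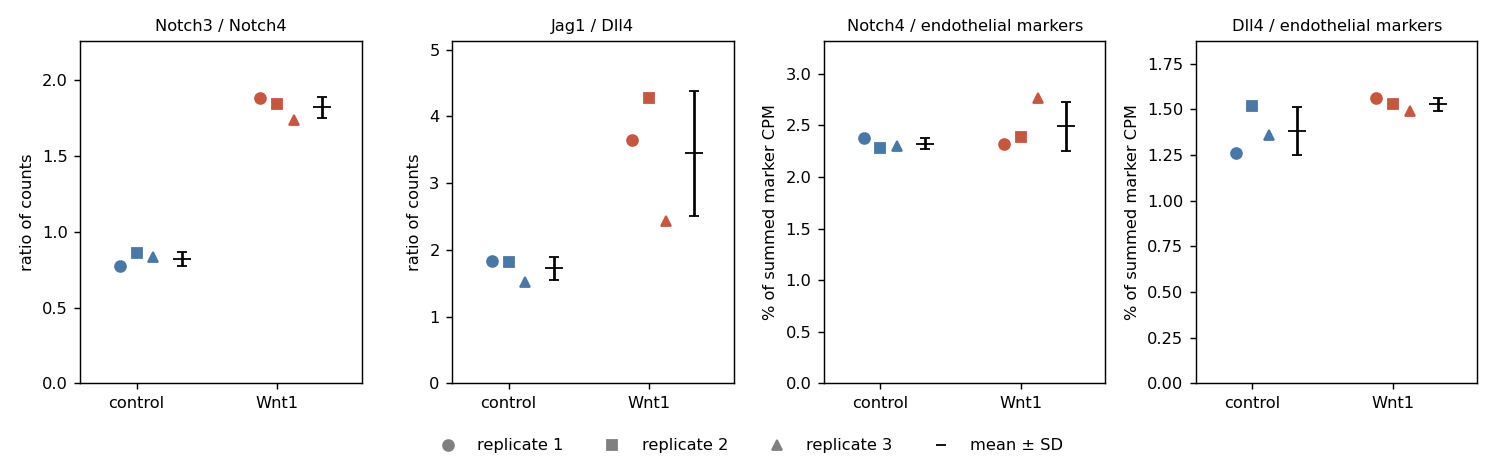
Ratio of reads of Notch3 to Notch4 and of Jag1 to Dll4, and level of Notch4 and Dll4 as a percentage of the summed CPM of 12 endothelial markers, in each library on linear axes from 0; symbols mark the replicate, and bars give mean ± SD of the plotted ratios. Notch3 to Notch4 lies at 0.773 to 0.86 in control and 1.74 to 1.88 with Wnt1, while both endothelial ratios overlap between the groups.

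Notch3 was set beside markers of mural cells. Of 8 mural cell markers, none at 0, 4 were called higher and 1 lower (median 0.51), with summed levels of 264 to 314 CPM in control and 501 to 676 CPM with Wnt1. Acta2 and Tagln, named after their values were seen, had the largest log2 fold changes of the 8 and weigh on this sum. Acta2 went from 45.6 ± 2.63 to 156 ± 39.6 CPM and Tagln from 36.6 ± 4.42 to 145 ± 29.7 CPM. Cspg4 (0.28) and Cnn1 (0.29) were not called. Pdgfrb, the PDGF receptor of pericytes, rose (0.83 ± 0.20; edgeR adjusted p = 0.0113), and Rgs5, another pericyte gene, had a log2 fold change of 0.21 (adjusted p = 0.698). The one called lower was Myh11, smooth muscle myosin, named after its value was seen (-0.44 ± 0.14; adjusted p = 0.0386; called in 7 of 16 alternatives, 0.000877 to 0.925). Notch3 was 7.5%, 7.93% and 9.96% of the mural sum in control and 6.35%, 5.9% and 7.22% with Wnt1, a log2 difference of -0.38 without overlap (two-sided exact permutation p = 0.1, adjusted p = 0.122). Against the median of the markers' log2 levels in place of their sum, the difference turned to 0.20, so the direction depends on how the markers are combined. All 6 fibroblast markers were called higher (median 2.10), among them Pdgfra (1.26 ± 0.15) and Col1a1 (2.93 ± 0.27; adjusted p = 0.000445 and 0.000192).

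Of 6 markers of injured tubule, all were called higher (median 5.61), and their summed level was 27.5 to 28.4 CPM in control and 1089 to 1419 CPM with Wnt1. Ratios of Jag1, Notch2, Hes1 and Dll1 to this sum follow the markers' rise and are not read here. Macrophage markers (6 of 6 higher, 191 to 233 and 1454 to 1765 CPM) and T and B cell markers (4 of 4 tested higher) rose. Markers of the proximal tubule (7 of 8 lower) and of the loop and distal nephron (5 of 6) fell. On the TMM scale part of the collecting duct markers (3 of 7) and podocyte markers (3 of 5) were called lower, and none higher. With library totals the collecting duct had 1 higher and 2 lower, and podocytes had 1 higher and 1 lower. The part of these cell types in the members' changes was not tested. Markers of adrenal, liver and muscle summed to 12.2 to 14.8 CPM in control and 3.79 to 5.01 CPM with Wnt1.

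The rest of the pathway was followed through 89 other genes, of which 79 were tested. Of these, 20 were called higher and 8 lower, 35.4% in all against 41.1% of all genes, with a median log2 fold change of 0.12. With library totals 42 of the 79 were called higher and 4 lower, and without both libraries numbered 3 the counts were 30 and 15. By the annotation in the deposited table, 60 genes including all 10 members belonged to the KEGG Notch pathway. Of the 55 tested, 12 were called higher and 4 lower (median 0.06). The counts were 30 and 2 with library totals and 16 and 12 without both libraries numbered 3. Over all tested genes, 22.4% were called higher and 18.7% lower with TMM and all libraries. These shares were 44% and 8.92% with library totals, and 32% and 30.4% without both libraries numbered 3. They stand beside the counts of both lists, the counts by role below and the marker counts above.

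Of the 79 genes, Gxylt2 had the largest log2 fold change on the TMM scale. Neurl3 (1.40 ± 0.19; edgeR adjusted p = 0.000912) and Neurl1a (2.2 ± 0.36; adjusted p = 0.00206), ubiquitin ligases of the Neuralized family, were the 2 called of 6 ligand endocytosis genes, both higher. Of 12 glycosylation and maturation genes 4 were called higher and 2 lower. Gxylt2, which adds xylose to glucose on the receptors' EGF repeats, went from 1.24, 1.06 and 0.593 CPM in control to 20.7, 29.5 and 16.5 CPM with Wnt1 (4.52 ± 0.34; adjusted p = 7.21e-05). On log2(FPKM + 1) its difference was 1.95, where the added 1 compresses the low control values. Poglut2, an O-glucosyltransferase of EGF repeats, rose (1.04 ± 0.14; adjusted p = 0.00078).

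Fringe enzymes, which add a sugar that changes a receptor's response to Delta and Jagged ligands, differed in direction. Rfng fell (-0.89 ± 0.16; edgeR adjusted p = 0.00269) and Lfng, named after its value was seen, rose (0.75 ± 0.21; adjusted p = 0.021; called in 13 of 16 alternatives, adjusted p 0.00197 to 0.0573). Lfng stood at 10.8, 10.3 and 13.9 CPM in control and 15.6, 19.1 and 24.2 CPM with Wnt1. Furin, the convertase that cuts the receptor precursor, fell (-0.70 ± 0.16; adjusted p = 0.00804), from 401 ± 21.8 to 246 ± 45.3 CPM. With library totals it was not called (-0.29; adjusted p = 0.101).

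Of 9 cleavage genes, 1 was called higher and 1 lower, against 5 and 1 with library totals and 2 and 4 without both libraries numbered 3. Aph1c, a gamma-secretase subunit, fell (-1.05 ± 0.14; edgeR adjusted p = 0.000835) and Adam17, a membrane sheddase, rose (0.77 ± 0.20; adjusted p = 0.018). Adam17 was not called when control replicate 1, 2 or 3 or Wnt1 replicate 1 or 2 was left out (adjusted p = 0.0553 to 0.0765). Of 9 tested genes of the nuclear complex, 2 were called higher and 1 lower. Rbpj went from 44.5 ± 3.36 to 66.7 ± 13.1 CPM (0.59 ± 0.17; adjusted p = 0.0253), Maml3, a Mastermind coactivator, rose (0.53 ± 0.16; adjusted p = 0.0265), and Kat2b, an acetyltransferase, fell (-0.71 ± 0.19; adjusted p = 0.0177). The Rbpj call was lost without control replicate 1, 2 or 3 or Wnt1 replicate 1 or 2 (adjusted p = 0.0614 to 0.0868), that of Maml3 without control replicate 2 or Wnt1 replicate 1 or 2 (0.0505 to 0.0819), and that of Kat2b without any single control library (0.069 to 0.13) or with library totals (0.257).

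Of 14 tested corepressor genes, 1 was called higher and 1 lower. Fhl1, a LIM-domain protein with an isoform that binds RBPJ, fell (-1.33 ± 0.16; edgeR adjusted p = 0.000532), and Tle1, a Groucho corepressor, rose (0.40 ± 0.14; adjusted p = 0.045), a call lost in 7 of 16 alternatives (adjusted p over them 0.00145 to 0.131). Of 12 receptor turnover genes, 4 were called higher and 1 lower. Dtx4, a Deltex ubiquitin ligase, rose from 22.1 ± 2.9 to 63.4 ± 6.99 CPM (1.52 ± 0.16; adjusted p = 0.00023). Numbl (1.33 ± 0.20; adjusted p = 0.00153) and Dtx3l (1.08 ± 0.17; adjusted p = 0.00189) rose as well. Numb, the inhibitor of Notch that Numbl resembles, fell on the TMM scale (-0.39 ± 0.12; adjusted p = 0.0295) and was at 0.03 with library totals (adjusted p = 0.822). The Numb call was also lost without control replicate 1, 2 or 3 or Wnt1 replicate 1 or 2 (adjusted p = 0.0557 to 0.178).

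Genes listed here as further targets or as relatives of targets were mixed, with 4 of 13 tested genes called higher and 2 lower. Heyl, a relative of Hey1 known from vascular smooth muscle, stood at 7.68, 7.67 and 8.35 CPM in control and 16.1, 19.7 and 22.8 CPM with Wnt1. It rose by 1.31 ± 0.17 (edgeR adjusted p = 0.000731), without overlap, and was called in all 16 alternatives. Hes6, a relative of Hes1 that opposes it, fell (-0.79 ± 0.16, edgeR adjusted p = 0.00522, and 0.0526 with library totals). Ccnd1, cyclin D1, which is also a Wnt target, fell (-1.02 ± 0.16; adjusted p = 0.00189), and Myc, another Wnt target and a growth regulator, named after its value was seen, rose (1.86 ± 0.42; adjusted p = 0.00965; called in 16 of 16 alternatives). Il2ra, an interleukin receptor chain of T cells, rose from 0.377 ± 0.0922 to 1.10 ± 0.147 CPM (1.55 ± 0.33; adjusted p = 0.00733). Nrarp, a feedback target chosen here for its role after its value was seen, stood at 0.01 (adjusted p = 0.972). Among ligand-like proteins, Thbs2, a matrix thrombospondin (2.26 ± 0.18; adjusted p = 9.78e-05), and Cntn1, a neuronal adhesion protein (1.97 ± 0.37; adjusted p = 0.00401), were the 2 called of 4 tested, and Dll3 had 0 or 1 read in each library.

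**Figure D5:**
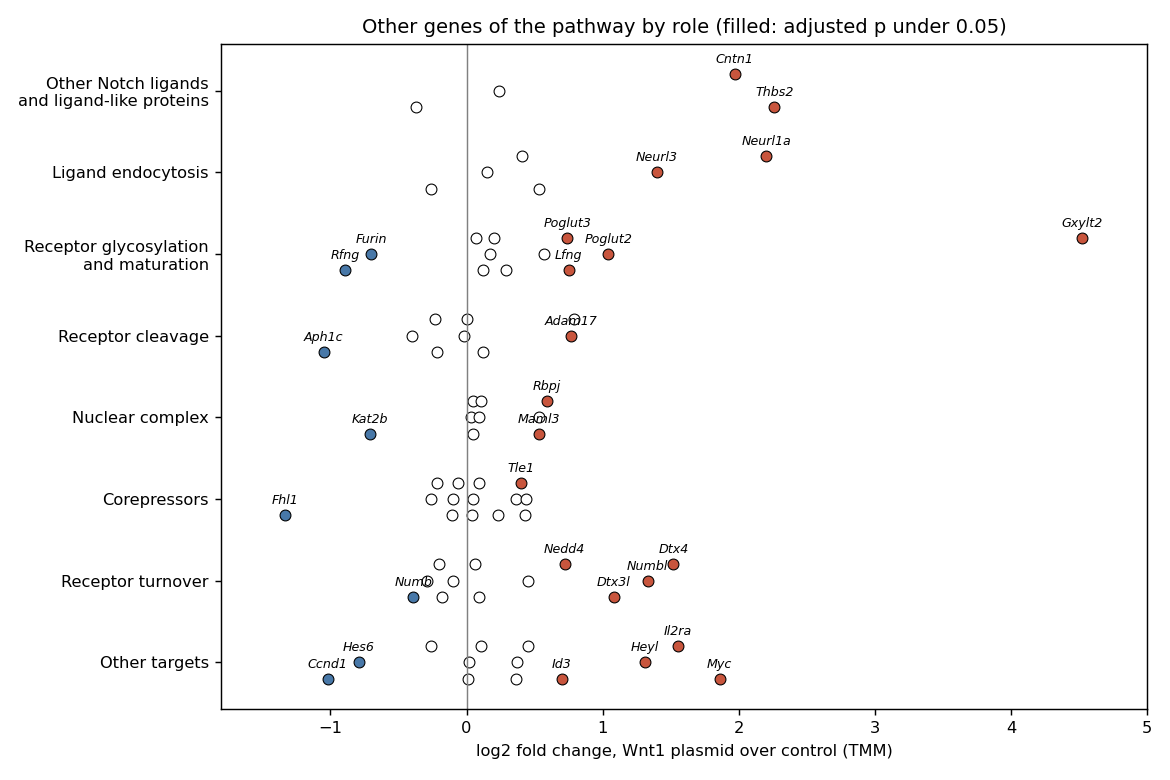
Log2 fold change, Wnt1 plasmid over control on the TMM scale, of 79 other pathway genes grouped by role; each circle is 1 gene, filled where edgeR's adjusted p was under 0.05, and vertical offsets within a role only separate the points. Gxylt2 lies farthest to the right at 4.52, and each role except ligand endocytosis and ligand-like proteins holds calls in both directions.

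In GRCm38, Notch3 (ENSMUSG00000038146) spans chromosome 17, 32120820 to 32166852, and Notch4 (ENSMUSG00000015468) chromosome 17, 34564268 to 34588503. Jag1 (ENSMUSG00000027276) spans chromosome 2, 137081456 to 137116644, and Dll4 (ENSMUSG00000027314) chromosome 2, 119325784 to 119335962. Notch1 lies on chromosome 2, Notch2 and Hey1 on chromosome 3, Dll1 on chromosome 17, Jag2 on chromosome 12 and Hes1 on chromosome 16. Exons of Notch1, Notch3, Dll1 and Dll4 overlap noncoding transcripts of the opposite strand, and those of Notch2 overlap an unclassified transcript (TEC) of the same strand. The sources used here do not say whether counting used strand, so reads of such partners cannot be told apart.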

How the data were processed

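Kidney RNA was extracted with Trizol, enriched on oligo(dT) beads and prepared with the NEBNext Ultra kit, per the labels' protocols. The submitters' processing notes name HISAT2, RSEM, StringTie 1.3.1, Bowtie2 2.2.8, mm10 and fastp 0.18.0. They state neither which tool did what nor the annotation or strand setting. Expected counts were deposited by the authors: estimated reads per gene of which 9.02% were not whole (beyond 1e-06), together with FPKM, which divides by transcript length and library total. Counts were rounded and analysed with edgeR 4.0.16 in R 4.3.3: filterByExpr, TMM factors, and a robust quasi-likelihood test of Wnt1 against control, two-sided, with Benjamini-Hochberg adjustment over 14432 genes and calls at an adjusted p under 0.05. The standard error comes from the unshrunken coefficient and the F statistic. The fit was tested on data simulated from control means, with far fewer changed genes than were called here. That test therefore does not bear on the choice of scaling. Every adjusted p without another tool's name is edgeR's.

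Alternatives were DESeq2 1.42.0, 3 other scalings, no filter, a stricter filter (every library of 1 group at 1 CPM or more), limma 3.58.1 on FPKM after adding 1 or 0.1 and taking log2 (genes reaching 1 FPKM in 3 or more libraries), voom with quality weights, each library left out, and both libraries numbered 3 left out. Shares and ratios were tested by exact permutation over libraries. Members and lists were chosen with earlier results of these data known. Of the other genes, up to 4 called genes with the smallest p were named per pathway list (the 2 smallest where fewer than 2 were called) and the first 2 tested markers per cell type. Replicates are numbered in the order of the records. Gene models are GENCODE M21 and promoters RefSeq GRCm38.p6. Count depth limits precision; no molecular identifiers are mentioned.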

Additional observations from a re-analysis of the deposited data

How the results depend on the processing

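The number of members that passed the test moved with the scaling, the filter, the weights and the libraries used. All genes called higher and lower numbered 3239 and 2697 in the analysis reported, 6348 and 1288 with library totals, 5144 and 1238 by limma on log2(FPKM + 1), and 5139 and 1234 on log2(FPKM + 0.1). The lower calls were 4430 with voom and quality weights and 4432 without both libraries numbered 3. Members called higher, 2 in the analysis reported, were 5 with library totals and on both FPKM scales, and 4 with upper-quartile factors and with no filter. In both of the latter settings the 4 were Notch1, Notch2, Notch3 and Jag1. Members called lower, 0 in the analysis reported, were 1 with DESeq2 and with median-ratio factors, and 2 with voom and without both libraries numbered 3. Leaving out each library gave 2681 to 4165 genes higher, 1797 to 3977 lower, 1 to 2 members higher and 0 to 2 lower. Without control replicate 2 the 1 member higher was Notch2 (edgeR adjusted p = 0.0456), and neither Notch3 nor Jag1 was called. The lowest count of lower genes, 1797, came without control replicate 2, and Wnt1 replicate 3 was the library whose removal gave the 2 lower members. Numb turned to 0.03 with library totals. The cause of these moves was not tested. Notch1, Notch2, Notch3, Jag1 and Hes1 were above 0 and Notch4 and Dll4 below 0 in all 16 alternatives, though the highest values of Notch4 and Dll4 were -0.06 and -0.03. Hey1 was above 0 in the 14 that tested it, since its FPKM was under the filter in limma. Jag2 and Dll1 changed sign without being called. The Notch4 receptor share moved by -7.44 percentage points on counts, against -11.1 on FPKM. No paired analysis was possible because the numbers in the sample titles share only 1 value between the groups. That value does not belong to the libraries numbered 3 here. Hey1, at 23 to 64 reads, is limited by depth.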
